A study of Mus musculus with 24 samples.

Results

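The genes described here are 10 of the 56065 genes in the deposited table. Of these, 8 lie on mouse chromosome 7, the chromosome of Ceacam1, and 2 are processed pseudogenes on other chromosomes, Gm45246 and Akt2-ps. Tescl, Apoc2, Mrps12, Zfp61, Zfp526 and Ech1 were chosen because earlier results of these libraries had shown them to differ between genotypes. The pseudogenes were chosen for the same difference, and Hnrnpl and Akt2 because they are the parents of the pseudogenes. Genotype differences of the 10 genes are therefore given as a description and without a test. The laser effect was tested. It did not choose the genes, but it shares the laser libraries with the genotype difference that did.

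RNA of the choroid, meaning the dissected complex of pigment epithelium, choroid and sclera, was sequenced in 24 libraries from SMART-Seq, a method that copies mRNA from small amounts of RNA into full-length cDNA. Wild type mice gave 4 libraries without laser (libraries 21, 22, 26 and 27) and 9 with laser (libraries 1, 2, 3, 11, 12, 13, 16, 17 and 19). Ceacam1-/- mice gave 4 libraries without laser (libraries 23, 24, 25 and 28) and 7 with laser (libraries 4, 5, 6, 7, 14, 15 and 18). According to the methods, which do not describe the laser groups, Ceacam1-/- mice lack exons 1 and 2 of Ceacam1 on both alleles, wild type controls were littermates from heterozygous parents, and young adult mice of both sexes were bred on the C57BL/6J strain. The strain and age of the laser mice are not given in the sources used here. In the laser groups, burns were set in both eyes with an Nd:YAG laser in order to induce new vessels in the choroid, and the time from laser to sampling is not given in the sources used here. Neither the sex nor the animal of a library is given, so the p-values measure only the spread between these libraries. The values are normalized counts, estimated reads corrected for the size of the library and for the average length of a gene's transcripts. They summed to between 23704346 and 35094410 per library, and genes above 0 numbered between 25021 and 27964.

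A processed pseudogene is a copy of a spliced mRNA that was written back into the genome, so it lacks the introns of its parent and usually lies elsewhere. Reads from such a copy can match the parent and the reverse. Genes that lie close together on a chromosome are usually inherited together. The chromosome 7 genes have unrelated tasks. Zfp61 and Zfp526 encode zinc finger proteins, Tescl a relative of the calcium-binding protein tescalcin, Apoc2 the apolipoprotein that activates lipoprotein lipase, Mrps12 a protein of the small ribosomal subunit of mitochondria, and Ech1 a dienoyl-CoA isomerase used in the breakdown of unsaturated fatty acids. Hnrnpl encodes an RNA-binding protein that regulates splicing, and Akt2 a kinase of insulin signalling.

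Both pseudogenes were compared with their parents in GRCm39, the build of the authors. Gm45246 spans 367 bases of chromosome 8 (98602786 to 98603152, forward strand) in 1 exon. All of it aligned within the coding part of the Hnrnpl mRNA, with 351 of 373 aligned positions identical (94.1%), and the alignment crossed 2 exon junctions of Hnrnpl. Akt2-ps spans 1449 bases of chromosome 11 (16464533 to 16465981, forward strand), also in 1 exon. It aligned with the Akt2 mRNA from the first coding base, bases 452 to 1897, with 1429 of 1449 positions identical (98.6%), and crossed 12 exon junctions. No other annotated transcript matched the canonical Hnrnpl or Akt2 transcript over at least 200 aligned bases at an identity of at least 85%. The following stretches of 120 bases were chosen because they hold the most differences among stretches of that length in the coding part aligned without gaps. Other such stretches hold as many differences or fewer, so reads from them are as hard or harder to assign. Each stretch shown also crosses an exon junction of the parent. Capitals mark the positions at which pseudogene and parent differ, and they show what a read had to cover to be assigned to one or the other.
Gm45246: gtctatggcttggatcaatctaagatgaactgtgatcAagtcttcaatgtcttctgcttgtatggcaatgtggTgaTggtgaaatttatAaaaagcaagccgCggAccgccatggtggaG
Hnrnpl: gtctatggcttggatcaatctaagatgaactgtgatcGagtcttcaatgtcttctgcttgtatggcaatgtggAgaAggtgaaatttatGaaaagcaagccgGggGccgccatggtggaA
Akt2-ps: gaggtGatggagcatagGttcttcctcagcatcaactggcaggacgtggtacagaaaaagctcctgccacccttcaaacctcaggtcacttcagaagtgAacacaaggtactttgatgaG
Akt2: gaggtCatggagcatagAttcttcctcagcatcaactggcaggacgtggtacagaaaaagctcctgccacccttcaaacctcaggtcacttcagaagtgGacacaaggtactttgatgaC
The Gm45246 stretch (chr8:98602862-98602981, forward strand) and the Hnrnpl stretch (exons 8 and 9, chr7:28518272-28519619 with the intron left out, forward strand) differ at 7 positions. The Akt2-ps stretch (chr11:16465739-16465858, forward strand) and the Akt2 stretch (exons 12 and 13, chr7:27336376-27336576 with the intron left out, forward strand) differ at 4 positions, and the bases between A18G and G100A, counted from 1 at the 5′ end of the stretch with the base of Akt2 first, hold no difference. Of all stretches of 31 bases in Gm45246, 134 of 337 (39.8%) also occur in the Hnrnpl mRNA, and of those in Akt2-ps, 964 of 1419 (67.9%) occur in the Akt2 mRNA. The values of the pseudogenes are therefore uncertain, because reads shared with the parent are divided between them by estimation.

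The deleted gene itself was lower in Ceacam1-/- libraries but not at 0. Without laser, Ceacam1 had 958, 5027, 1242 and 4596 normalized counts in wild type libraries 21, 22, 26 and 27. In Ceacam1-/- mice, libraries 23, 24, 25 and 28 held 405, 505, 508 and 1171. The groups overlapped through library 28. With laser, the wild type libraries ranged from 774 to 8367 around a median of 996, and Ceacam1-/- libraries from 67.8 to 905 around a median of 335. The highest Ceacam1-/- library with laser, library 15, lay above the lowest wild type library. A count over the whole gene also holds reads from exons outside the deletion. The log2 difference between Ceacam1-/- and wild type was -1.95 (SE 0.60) without laser and -2.17 (SE 0.52) with laser. Ceacam2, the neighbouring paralog, had medians of 8.30 in wild type and 25.8 in Ceacam1-/- libraries without laser and of 8.39 and 0 with laser.

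The libraries differed in tissue content. All 6 pigment epithelium, 5 melanocyte and 6 endothelial markers were above 0 by median over all libraries together, with Ttr, Dct and Plvap the most abundant. Of the Ceacam1-/- laser libraries, 14, 15 and 18 stood apart. Their 6 photoreceptor markers summed to 882830, 504889 and 954254 normalized counts against 6966 to 133407 in the other 4. In the same 3 libraries the 6 pigment epithelium markers summed to 63238, 49391 and 36815, against 159008 to 287475 in the other 4, and the 7 myeloid markers to 24545, 20142 and 14311, against 55758 to 83286. Without laser, wild type library 21 and Ceacam1-/- library 23 were also rich in photoreceptor markers (509826 and 555034). Genotype differences with laser are therefore also given without libraries 14, 15 and 18 for 8 of the 10 genes and where another gene moved by more than 1.5 times. Tescl and Gm45246 averaged 9.17 and 9.01 normalized counts in the other 13 laser libraries, under the minimum of 10 for a fit. In such bulk tissue, fewer cells of a type and less RNA per cell cannot be told apart.

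Against this background the genotypes were compared for the 10 genes. Without laser, 3 of them (Zfp526, Gm45246 and Akt2-ps) had values that did not overlap between wild type and Ceacam1-/- libraries, a state found in 1.36% of the 20057 genes tested. With laser, 5 of them (Tescl, Apoc2, Mrps12, Zfp61 and Ech1) did not overlap, against 0.147% of 19757 genes. Over all genes, limma called 4 (0.0202%) by genotype in the 16 laser libraries and 0 (0%) in the 8 libraries without laser, with 1.53% of genes there under an unadjusted p of 0.05. The 4 were Tescl, Apoc2, Mrps12 and Gm45246, all among the described genes. As the genes were chosen on these contrasts, nothing is read from the counts. Apoc2 passed the filter on low values, a mean of at least 10, only in fits with laser libraries, and Tescl, Gm45246 and Akt2-ps passed it through the Ceacam1-/- libraries.

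**Figure D1:**
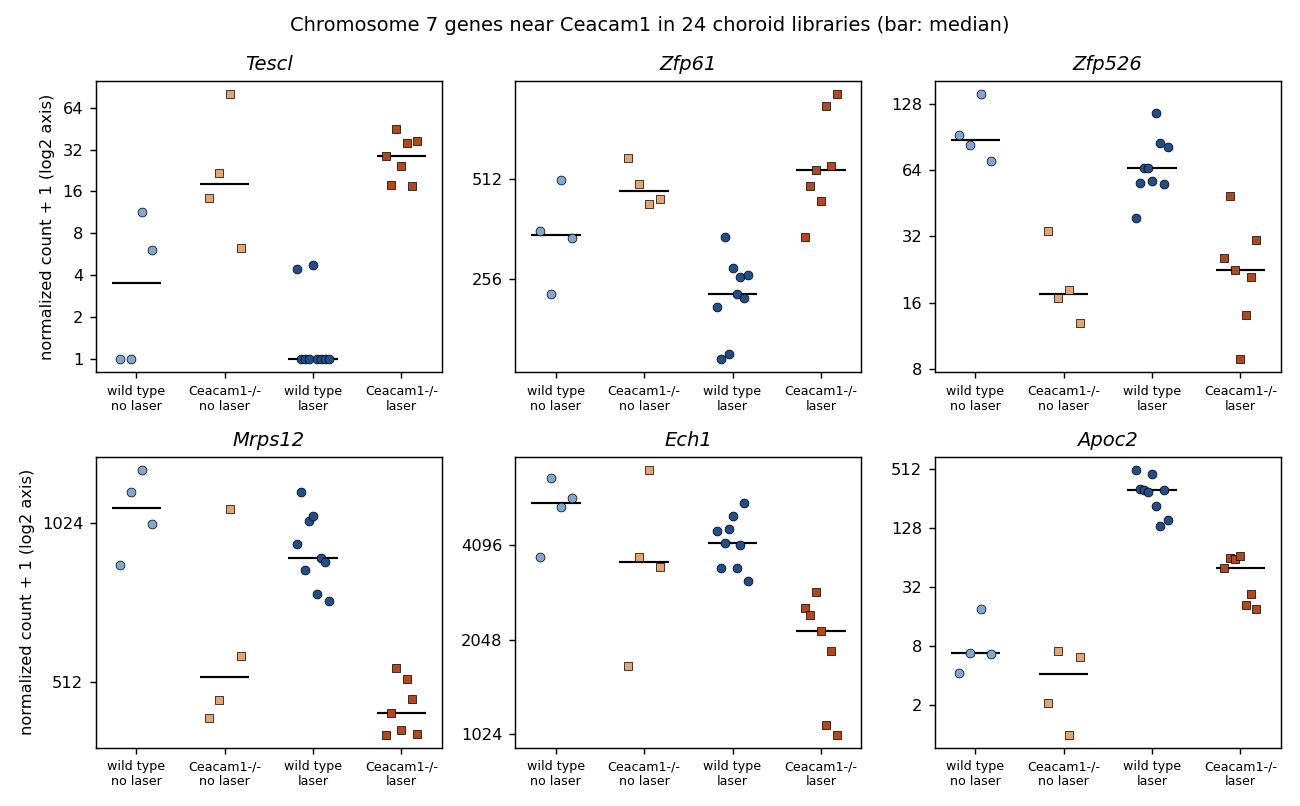
Normalized counts plus 1 on a log2 axis for the 6 chromosome 7 genes chosen by genotype, in 4 groups (circles wild type, squares Ceacam1-/-, 1 symbol per library, bars at the median). With laser, Tescl and Zfp61 lie higher and Mrps12, Ech1 and Apoc2 lower in every Ceacam1-/- library than in every wild type library, and Zfp526 overlaps through a single library on each side.

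Zfp526 lies 0.23 Mb from Ceacam1, the shortest distance among the 8 genes (chromosome 7, 24920843 to 24927712, forward strand). It was lower in Ceacam1-/- mice. Without laser, wild type libraries had 91.4, 82.8, 141 and 69.7 normalized counts, and Ceacam1-/- libraries 32.7, 15.8, 17.2 and 11.9. With laser, wild type libraries ranged from 37.9 to 116 (median 64.5), and Ceacam1-/- libraries from 7.87 to 47.7 (median 21.6). The laser groups overlapped only through wild type library 1 and Ceacam1-/- library 5, and did not overlap once either was left out. The log2 difference was -2.30 (SE 0.44) without and -1.61 (SE 0.33) with laser, and -1.56 without libraries 14, 15 and 18. The last 31 bases of Zfp526 overlap Gsk3a on the opposite strand. Gsk3a, at 2056 ± 146 (SD, n = 4) and 2110 ± 114 (SD, n = 4) normalized counts without laser, did not share the difference.

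Zfp61 (23990464 to 24000657, reverse strand) and Tescl (24032507 to 24033361, reverse strand) lie 1.16 and 1.13 Mb below Ceacam1, and both were higher in Ceacam1-/- mice. Zfp61 had 356, 231, 509 and 339 normalized counts in wild type libraries without laser and 591, 493.2, 429 and 447 in Ceacam1-/- libraries, so that wild type library 26 alone reached into the Ceacam1-/- range. With laser it ranged from 147 to 342.6 (median 231) in wild type and from 342.8 to 919.6 (median 544) in Ceacam1-/- libraries, so that the groups were apart by less than 1 normalized count. The log2 difference of Zfp61 was 0.49 (SE 0.27) without laser, 1.30 (SE 0.22) with laser and 0.98 without libraries 14, 15 and 18, of which 14 and 18 held the highest values. Zfp94, whose gene ends 0.1 kb away, had log2 differences of 0.17 (SE 0.24) and 0.31 (SE 0.19).

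Tescl consists of 1 exon of 855 bases. Without laser it was listed at 0 in wild type libraries 21 and 22 and had 10.3 and 5.02 normalized counts in libraries 26 and 27. The Ceacam1-/- libraries had 13.3, 20.6, 78.9 and 5.29, and the lowest of them lay between the wild type libraries 26 and 27. With laser, Tescl was at 0 in 7 of 9 wild type libraries and at most 3.71, while Ceacam1-/- libraries ranged from 16.5 to 44.2 (median 27.9). All 7 Ceacam1-/- libraries thus lay clearly above all 9 wild type libraries. The log2 difference was 2.79 (SE 1.10) without laser, between 2.28 and 3.45 when single libraries were left out, and 4.31 (SE 0.47) with laser. These fold changes depend on the pseudocount, and with 10 in place of 1 the difference with laser was 1.80.

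Apoc2 lies 5.75 Mb below Ceacam1 (19405504 to 19411877, reverse strand), the largest distance among the 8 genes. It was nearly silent without laser, with 3.22, 5.79, 18.1 and 5.67 normalized counts in the wild type libraries and 1.09, 6.14, 0 and 5.13 in the Ceacam1-/- libraries. With laser, wild type libraries ranged from 133 to 495 (median 308) and Ceacam1-/- libraries from 17.8 to 65.4 (median 48.8). The highest Ceacam1-/- library held less than the lowest wild type library. The log2 difference with laser was -2.82 (SE 0.35), and -2.20 without libraries 14, 15 and 18, which had the 3 lowest values of the group (19.9, 25.7 and 17.8). Apoc2l, annotated over nearly all of Apoc2 on the same strand, averaged 4.42 ± 8.88 (SD, n = 9) in wild type laser libraries and was listed at 0 in the Ceacam1-/- laser libraries, and Apoc4, 0.1 kb away, averaged 8.63 and 8.57 in wild type and Ceacam1-/- laser libraries. Apoe, the abundant apolipoprotein of the same cluster, overlapped between genotypes without laser, with a log2 difference of 0.27 (SE 0.37). With laser it averaged 91715 normalized counts in the wild type and 39890 in Ceacam1-/- libraries, a log2 difference of -1.32 (SE 0.28), and the groups did not overlap. Without libraries 14, 15 and 18 it was -0.74.

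Mrps12 lies 3.26 Mb above Ceacam1 (28439066 to 28441680, reverse strand). Without laser it had 853, 1169.7, 1290.2 and 1019.7 normalized counts in wild type libraries and 436, 473, 1087 and 573 in Ceacam1-/- libraries. Library 25 alone reached the wild type range. With laser, wild type libraries held 729 to 1174 (median 877) and Ceacam1-/- libraries 406 to 544 (median 446). The values of the 7 Ceacam1-/- libraries were narrowly grouped at 458 ± 55.5 (SD, n = 7), against 917 ± 147 (SD, n = 9) for the wild type. The log2 difference was -0.84 (SE 0.30) without laser, -0.99 (SE 0.12) with laser and -1.01 without libraries 14, 15 and 18. Sars2, which shares 289 bases with Mrps12 on the opposite strand, was not lower in Ceacam1-/- mice, with 276 ± 88.8 (SD, n = 9) in laser libraries of wild type mice and 331 ± 116 (SD, n = 7) in those of Ceacam1-/- mice. Fbxo17, 0.9 kb from Mrps12, had a log2 difference of -0.66 (SE 0.31) without laser and -1.10 (SE 0.23) with laser, with groups that overlapped in both.

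Ech1 lies 3.35 Mb above Ceacam1 (28524036 to 28531674, forward strand), 2.3 kb from Hnrnpl. Without laser the genotypes overlapped through library 25, with 3775, 6723, 5427 and 5799 normalized counts in the wild type libraries and 1685, 3769, 7137 and 3487 in the Ceacam1-/- libraries. Library 25, which also had the highest sum of muscle markers (866007), was the highest of all 8, and the other 3 Ceacam1-/- libraries lay below every wild type library. With laser, Ech1 ranged from 3161 to 5613 (median 4185) in wild type and from 1019 to 2905 (median 2175) in Ceacam1-/- libraries. The log2 difference was -0.58 (SE 0.40) without laser, -1.15 (SE 0.21) with laser and -0.73 without libraries 14, 15 and 18, and the groups with laser did not overlap in that case either. Lgals4, 0.1 kb from Ech1, encodes a galectin and had log2 differences of -0.73 (SE 0.30) without and -0.97 (SE 0.21) with laser.

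**Figure D2:**
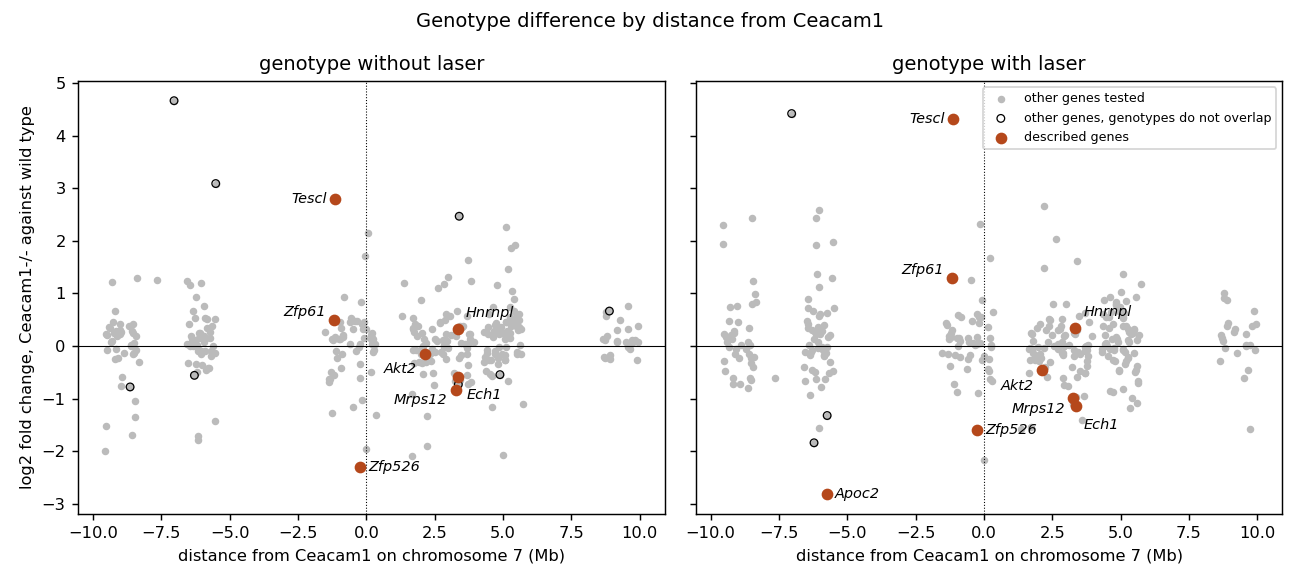
Log2 difference between Ceacam1-/- and wild type (y axis) by distance from Ceacam1 on chromosome 7 in Mb (x axis), without laser on the left and with laser on the right, for all genes tested within 10 Mb. The described genes are filled in colour and other genes whose genotypes do not overlap are circled. Apoc2 was not tested without laser, most other genes lie near 0 at every distance, and genes that are higher and genes that are lower in Ceacam1-/- mice lie on both sides of Ceacam1.

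The genes around Ceacam1 that were not chosen were compared in the same way. Within 10 Mb lie 978 other genes, of which 339 were tested without laser and 330 with laser, and 0 passed an adjusted p of 0.05 in limma's fits. This 0 was fixed, since the only genes called over the whole table were 4 of the described genes, with laser. Without laser, 12 of them (3.54%, against 1.53% of all genes) had an unadjusted p under 0.05, and the genotypes of 8 (2.36%, against 1.36%) did not overlap. With laser it was 80 genes (24.2%, against 22.7%), and the genotypes of 3 (0.909%, against 0.147%), Apoe, Gpr4 and Gm45104, did not overlap. Gm45104, a transcript of uncertain status at 18130441 to 18134790, was higher in Ceacam1-/- mice in both settings, at 180 to 349 against 0 to 143 normalized counts without laser and 129 to 362 against 0 to 114 with laser. Gm16251, a long noncoding RNA at 19654579 to 19661690, ranged from 17.9 to 27.9 in Ceacam1-/- and from 0 to 13.4 in wild type libraries without laser, and from 6.88 to 33.5 and 0 to 3.40 with laser, where its mean was too low for the test. Genes of lowest p in either contrast also included the long noncoding RNA Gm10648 (log2 difference 2.47 without and 1.62 with laser), the amino acid transporter gene Slc1a5 (-0.78 and -0.79), Ppp1r14a (1.24 and 0.02), the acid-sensing receptor gene Gpr4 (-0.34 and -1.84) and Zfp566 (0.75 and 0.94). Without libraries 14, 15 and 18, the difference with laser was -0.38 for Slc1a5, 0.74 for Ppp1r14a and -0.96 for Gpr4. Genotypes of 2 of the 19216 genes tested in both settings (0.0104%), Gm45104 and Cep95 on chromosome 11, did not overlap, in the same direction, with and without laser.

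The pseudogenes had values near 0 in wild type libraries and were present in every Ceacam1-/- library. Gm45246 had 1.71, 0, 0.917 and 0 normalized counts in wild type libraries without laser and 27.3, 30.2, 14.1 and 22.6 in Ceacam1-/- libraries. With laser, 8 of the 9 wild type libraries lay between 0 and 1.22, library 2 had 13.4, and Ceacam1-/- libraries ranged from 12.1 to 37.4 (median 30.2). Library 2 lay within the Ceacam1-/- range, and without it, or without Ceacam1-/- library 4, the groups did not overlap. Akt2-ps had 0, 11.8, 3.70 and 0.984 normalized counts in wild type libraries without laser and 42.7, 69.4, 42.2 and 27.9 in Ceacam1-/- libraries. With laser, 8 wild type libraries lay between 0 and 5.74, library 2 had 35.7, and Ceacam1-/- libraries ranged from 7.61 to 57.1 (median 32.5). Again library 2 alone caused the overlap. The log2 differences without and with laser were 3.97 (SE 0.65) and 3.80 (SE 0.54) for Gm45246 and 3.74 (SE 0.83) and 3.12 (SE 0.65) for Akt2-ps, the latter 3.72 without libraries 14, 15 and 18. With a pseudocount of 10 they were 1.63 and 1.59 for Gm45246 and 1.99 and 1.53 for Akt2-ps. Leaving out single libraries moved the Akt2-ps difference without laser to between 3.17 and 4.39. For Tescl, Apoc2, Mrps12, Zfp61, Zfp526 and Ech1, library 2 lay outside the range of the Ceacam1-/- laser libraries, while its Hnrnpl value of 6427 lay within it. The cause of its pseudogene values was not tested. Its Ceacam1 value of 996 lay in the middle of its group, Tescl was at 0, and its Zfp61 value of 147 was the lowest of all 24.

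The parent genes overlapped between genotypes. Hnrnpl (chromosome 7, 28507966 to 28521693, forward strand, 3.33 Mb above Ceacam1) had 6434, 6016, 5517 and 5367 normalized counts in wild type libraries without laser and 7633, 5569, 7494 and 8836 in Ceacam1-/- libraries, so that library 24 alone reached into the wild type range. With laser, it ranged from 5064 to 6699 (median 5621) and from 5547 to 9929 (median 6529). The 3 highest of these, 9929, 8558 and 9029.9, came from libraries 14, 15 and 18, and the other 4 Ceacam1-/- libraries lay within the wild type range. The log2 difference was 0.32 (SE 0.20) without laser, 0.35 (SE 0.13) with laser and 0.11 without the 3 libraries. Akt2 (27284378 to 27340262, forward strand, 2.11 Mb above Ceacam1) had 2938, 4343, 3773 and 4500.1 normalized counts in the wild type libraries and 1959, 4572, 5058 and 3176 in Ceacam1-/- libraries without laser, and the groups overlapped in full. With laser, the ranges were 2274 to 4629 (median 3443) and 1256 to 3585 (median 2713), and libraries 14, 18 and 15 held the lowest values of the Ceacam1-/- group. Its log2 difference was -0.15 (SE 0.31) without laser, turning to 0.13 without library 23, and -0.45 (SE 0.20) with laser, or -0.11 without the 3 libraries.

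As a share of the summed normalized counts of pseudogene and parent, Gm45246 took a median of 0.306% in Ceacam1-/- and 0.00831% in wild type libraries without laser, and 0.305% and 0.0139% with laser. For Akt2-ps the medians were 1.18% and 0.0599% without laser and 1.32% and 0.0460% with laser. In library 14, in which Akt2 was lowest, Akt2-ps was also the lowest of the Ceacam1-/- libraries, and its share of 0.602% was the lowest of its group. Sec61g, the coding gene 6.0 kb from Akt2-ps, averaged 200.3 normalized counts in the wild type without laser and 346 in Ceacam1-/- libraries (log2 difference 0.71, SE 0.30), and 334 and 307 with laser (-0.10, SE 0.20, and 0.07 without libraries 14, 15 and 18). Its groups overlapped in both settings. The coding genes next to Gm45246, Got2 and Cdh8, lie more than 1 Mb away. Got2 averaged 13389 and 12369 without and 6875 and 5116 with laser. Cdh8 was low and variable, at 102 and 65.9 without laser (log2 difference -1.08, SE 1.26) and 24.6 and 110.02 with laser (1.57, SE 0.93, and 0.12 without libraries 14, 15 and 18), with groups that overlapped.

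**Figure D3:**
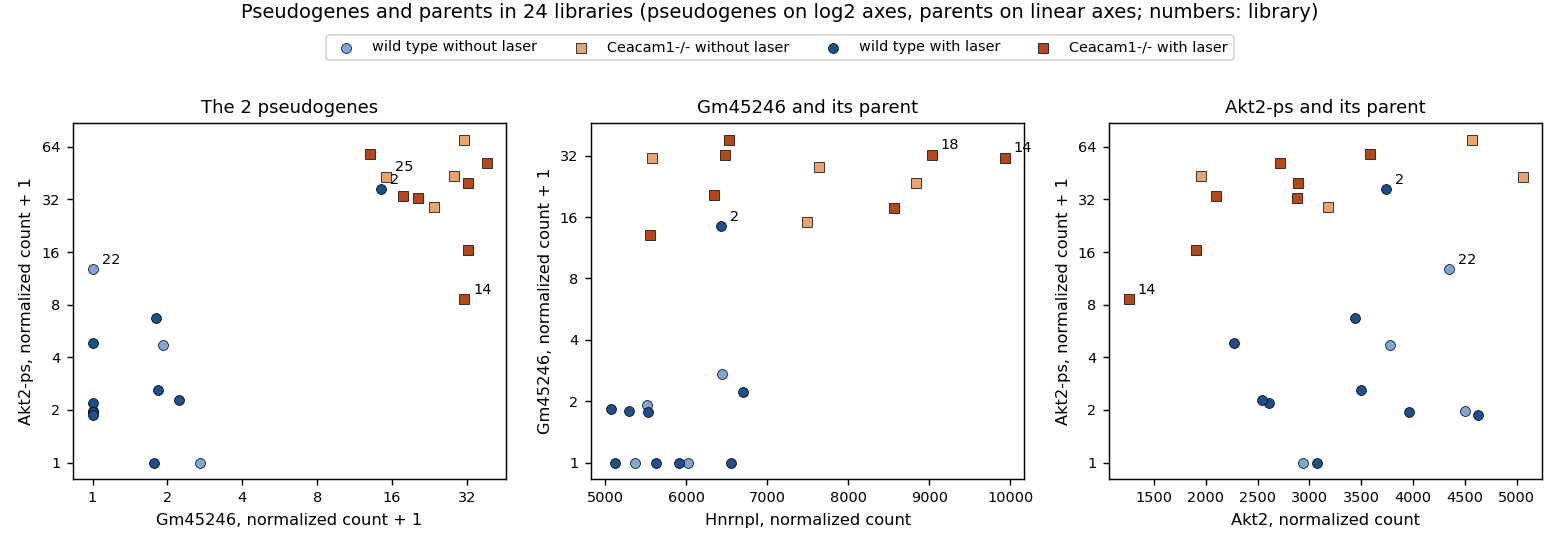
Left, Akt2-ps against Gm45246 (normalized count plus 1, log2 axes). Middle and right, each pseudogene (log2 axis) against its parent (linear axis), with 1 symbol per library and numbers for single libraries. All 11 Ceacam1-/- libraries and wild type library 2 lie at 12.1 or more for Gm45246, the other 12 wild type libraries lie at 1.71 or less, and the parents overlap between genotypes.

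Laser treatment raised 1 of the 10 genes. Over the mean of both genotypes, limma called 2764 of 19950 genes (13.9%), and 1534 (7.69%) were higher. Apoc2 passed, with a log2 fold change of 4.40 (SE 0.37) and an adjusted p of 4.34e-08, or 6.77e-08 with all genes above 0 tested. It reached the minimum mean through its laser libraries, and the wild type laser values also entered its choice. Every laser library was above every library without laser of the same genotype. Groups that did not overlap, in either direction, were found for 6.25% of genes in the wild type and for 2.13% in Ceacam1-/- mice. The lowest of all laser libraries, Ceacam1-/- library 18 at 17.8, lay just below wild type library 26 without laser at 18.1. The rise was 5.14 (SE 0.52, adjusted p = 1.52e-06 from limma) in wild type and 3.65 (SE 0.54, adjusted p = 0.000415 from limma) in Ceacam1-/- mice, against 5.28% and 3.72% of genes called. In a fit of the Ceacam1-/- libraries alone the adjusted p was 0.0614, and without libraries 14, 15 and 18 the rise was 4.27. Whether the rises in the genotypes differ was not tested, since the choice of Apoc2 used the genotype difference with laser. Of the 7 myeloid markers, led by Lyz2, 6 rose in the mean over genotypes, and the median log2 fold change of the 7 was 1.88. They summed to 9246 to 19878 normalized counts in the 8 libraries without laser, to 43697 to 118679 in wild type and to 14311 to 83286 in Ceacam1-/- laser libraries. In Ceacam1-/- libraries 4, 5, 6 and 7 the myeloid markers (55758 to 83286) lay within the wild type laser range, while Apoc2 (48.8 to 65.4) lay below it. The part of the myeloid markers in the rise was not tested.

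Ech1 and Akt2 were lower with laser but did not pass. The log2 fold change of Ech1 was -0.63 (SE 0.22, adjusted p = 0.0528 from limma), with -0.35 in wild type and -0.91 in Ceacam1-/- mice. It lay on either side of the threshold under the alternatives, at adjusted p between 0.00208 and 0.161. For Akt2 it was -0.40 (SE 0.18, adjusted p = 0.155 from limma), between 0.0104 and 0.343 under the alternatives. Without libraries 14, 15 and 18 the fold changes were -0.42 for Ech1 and -0.23 for Akt2. Of the 6 muscle markers, led by Acta1, 4 fell with laser in the mean over genotypes (median log2 fold change of the 6 -1.52), while 0 passed limma's adjusted p within either genotype. The muscle sums had medians of 356555 and 413515 without laser and 247712 and 74464 with laser, in wild type and Ceacam1-/- mice. Library 14 had the lowest muscle sum (10099) and an Ech1 value of 1091, while the lowest Ech1 value, 1019, was in library 18 with a muscle sum of 57153. The part of muscle in the result was not tested. Mrps12 (-0.32, SE 0.14, adjusted p = 0.130), Zfp61 (-0.20, SE 0.18, 0.530), Zfp526 (-0.16, SE 0.27, 0.760) and Tescl (-0.27, SE 0.50, 0.785) were not called by limma. Neither were Gm45246 (0.16, SE 0.42, 0.858), Akt2-ps (-0.28, SE 0.55, 0.796) and Hnrnpl (-0.00, SE 0.11, 0.996). For the pseudogenes and Tescl the standard errors leave room for changes of about 1 on the log2 scale.

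**Figure D4:**
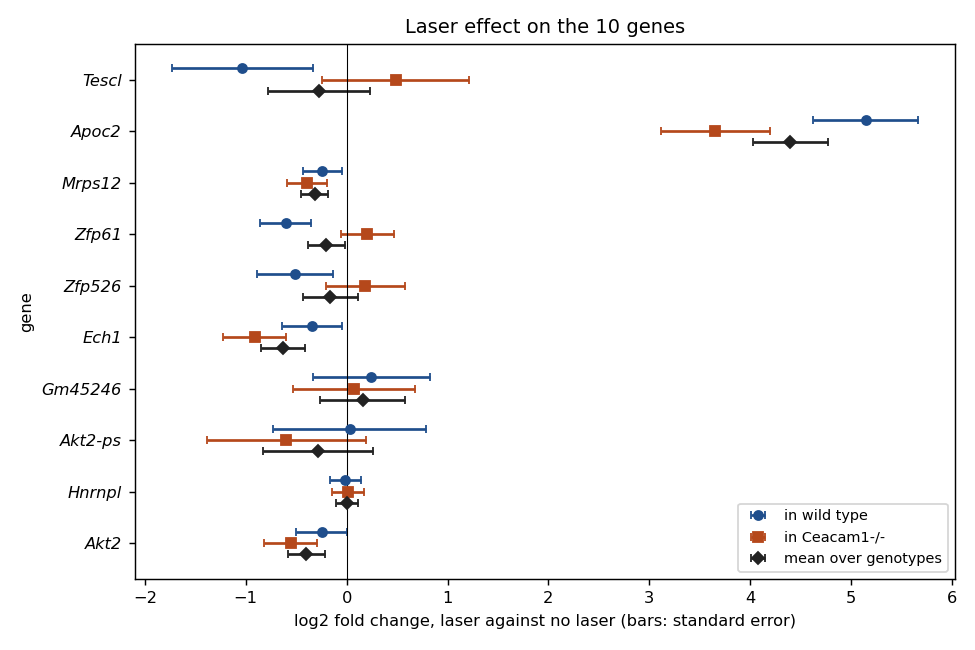
Log2 fold change of laser against no laser (x axis, bars are 1 standard error) for the 10 genes, in wild type (circles), in Ceacam1-/- mice (squares) and as the mean over genotypes (diamonds). Apoc2 lies at 4.40 in the mean, and the other 9 genes lie between -0.63 and 0.16.

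Across the 24 libraries, which share genotype, laser and tissue content, Apoc2 followed the myeloid marker sum with a Pearson r of 0.92 (Spearman 0.90) on the log2 scale, and Ech1 and Akt2 followed the muscle sum with r of 0.86 and 0.88. Ech1 and Akt2 also ran with the pigment epithelium sum (0.78 and 0.70) and against the photoreceptor sum (-0.67 and -0.61). Mrps12 ran with the muscle (0.60) and pigment epithelium sums (0.56), Zfp61 against the endothelial (-0.60) and myeloid sums (-0.50), and Hnrnpl against the pigment epithelium (-0.65) and endothelial sums (-0.55). The value farthest from 0 among the 5 sums was -0.41 for Gm45246 and 0.33 for Zfp526, both with pigment epithelium, -0.29 for Tescl with endothelial and -0.26 for Akt2-ps with pigment epithelium markers. The genes with patterns most like each member, by Pearson r over all 24 libraries among genes with a mean of at least 10, are given in order of r. Gm45246 and Akt2-ps were each the nearest gene of the other (0.83), followed by Gm16251 on chromosome 7 and Cep95 on chromosome 11 (0.77) for Gm45246, and by Gm45104 and Gm16251 on chromosome 7 for Akt2-ps. Tescl was nearest to Gm16251 (0.81), Zfp566 (0.80) and Zfp61 (0.79), all on chromosome 7. Among the genes nearest to Apoc2 were Mymx (0.94) and the myeloid marker Lyz2 (0.93). Ech1 was nearest to Acads (0.94), Clybl and Acadl, and Acads and Acadl encode dehydrogenases of fatty acid oxidation. Mrps12 was nearest to Plin5, Ech1 and the muscle factor gene Myod1 (0.81 to 0.80). Akt2 was nearest to Mapkapk2 (0.94), Acat1 and Asnsd1, and Hnrnpl to Mllt6 (0.93), the splicing factor gene Tra2a and Wdr89. Zfp61 had A730011C13Rik (0.86), Gm43359 and Crtc2, and the genes nearest to Zfp526 included Becn1 (0.76) and Ldah.

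**Figure D5:**
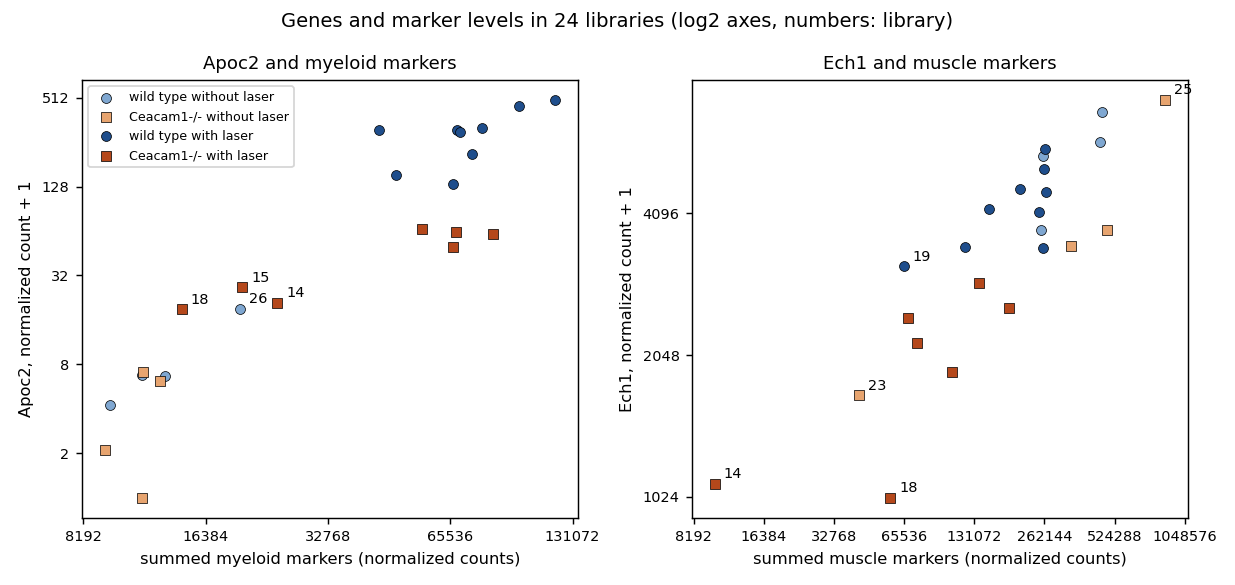
Left, Apoc2 against the sum of 7 myeloid markers. Right, Ech1 against the sum of 6 muscle markers (normalized counts, log2 axes, 1 symbol per library, numbers for single libraries). Ceacam1-/- laser libraries 4, 5, 6 and 7 hold 48.8 to 65.4 normalized counts of Apoc2, against 133 to 316 in the 5 wild type laser libraries with myeloid sums in the same range, and libraries 14 and 18 lie lowest for Ech1. Apoc2 was chosen by its genotype difference with laser, so these values are a description, and the part of the myeloid markers was not tested.

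For 6 of the 10 genes (Mrps12, Apoc2, Ech1, Akt2, Hnrnpl and Tescl), lists of related genes outside 10 Mb of Ceacam1 were compared by genotype. Of the 6 lists, 132 genes were tested without laser and 133 with laser, and 0 passed limma's adjusted p in either (0% and 0.0202% of all genes). The 4 genes called over all genes with laser were Tescl, Apoc2, Mrps12 and Gm45246, which the lists leave out. A count of 0 in the lists and among the markers was thus fixed at the main settings, and nothing is read from it. The unadjusted p was under 0.05 with laser for 17 of 26 genes of fatty acid beta-oxidation (median log2 difference -0.45, against 0.01 over all genes), 11 of 27 of AKT signalling, 7 of 28 of the hnRNP and PTB family, 4 of 30 of the mitochondrial small ribosomal subunit, 3 of 14 of the lipoprotein lipase pathway and 1 of 8 of the tescalcin family. Over all genes this share was 22.7%. In the same contrast the median log2 difference was -1.33 for muscle, -1.48 for pigment epithelium, -1.07 for melanocyte, -0.63 for endothelial, -0.42 for fibroblast, -0.50 for myeloid, 2.02 for photoreceptor, -0.01 for lens and 0.70 for erythroid markers, with 0 markers past limma's adjusted p, and their part in these counts was not tested. Without libraries 14, 15 and 18 the share over all genes was 8.40%, and the counts were 9 of 26 for beta-oxidation (median -0.30), 3 of 27 for AKT signalling, 1 of 28 for the hnRNP and PTB family, 0 of 30 for the ribosomal subunit, 3 of 14 for the lipase pathway and 0 of 8 for the tescalcin family, with 0 genes past limma's adjusted p. The marker medians were then -0.74 for muscle, -0.53 for pigment epithelium, 0.54 for melanocyte, 0.03 for endothelial, 0.88 for fibroblast, 0.15 for myeloid, 0.23 for photoreceptor, 1.19 for lens and 1.65 for erythroid markers. Again 0 markers passed limma's adjusted p, while 5 of 5 erythroid, 4 of 5 fibroblast, 3 of 5 lens, 2 of 6 muscle and 1 of 5 melanocyte markers had an unadjusted p under 0.05. The gene of lowest p in each list with laser, none of them past the adjusted threshold, was Cpt2 (log2 difference -0.60, SE 0.13), Inppl1 (-0.81, SE 0.20), Ptbp2 (0.61, SE 0.17), Mrps6 (-0.60, SE 0.19), Angptl4 (-1.12, SE 0.35) and Chp2 (-1.04, SE 0.41). Without libraries 14, 15 and 18 these differences were -0.39, -0.46, 0.27, -0.20, -0.40 and -0.14. Without laser an unadjusted p under 0.05 was found for 3 of 27 genes of AKT signalling and 0 of the other lists, against 1.53% of all genes. The gene of lowest p in each list was then Ehhadh (-0.41, SE 0.26), Inpp5d (1.27, SE 0.34), Hnrnpul2 (0.47, SE 0.23), Mrps2 (-0.26, SE 0.19), Apoc3 (1.37, SE 0.67) and Ppp3r1 (-0.36, SE 0.24).

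With laser, 21 of 133 relatives (15.8%, against 13.9% of all genes) passed in the mean over genotypes, 7 higher and 14 lower. Fatty acid beta-oxidation held 7 of the lower genes, among 26 tested, against 6.17% of all genes called lower, and its median was -0.28 against -0.04 over all genes. Within wild type the median was -0.10, against -0.10 over all genes, and only Acadm was called. In Ceacam1-/- mice, whose laser group holds libraries 14, 15 and 18, it was -0.47 against 0.02, and Cpt1b and Eci1 were called. Whether the genotypes differ in this was not tested. Acadm, a medium-chain acyl-CoA dehydrogenase, fell by 0.83 on the log2 scale (SE 0.16, adjusted p = 0.00117 from limma), and Cpt1b, the carnitine palmitoyltransferase of muscle, by 1.93 (SE 0.41). Acadvl, Eci1, Hadhb, Hadha and Echs1 fell by 0.64, 0.76, 0.73, 0.45 and 0.46. In the same libraries 4 of 6 muscle markers fell, and their part in this was not tested. Of 28 hnRNP and PTB genes, 6 rose (Syncrip, Hnrnpf, Hnrnpab, Hnrnpa1, Hnrnpk and Hnrnpd), against 7.69% of all genes called higher. They rose by 0.47 for Hnrnpf to 0.77 for Syncrip (SE 0.12, adjusted p = 0.000197 from limma), while Hnrnpl had a log2 fold change of -0.00. In the same contrast 6 of 7 myeloid markers rose, and their part in this was not tested. Of 27 genes of AKT signalling, 5 fell, Tbc1d4 by 0.97 (SE 0.21), Inppl1 by 0.66, Tsc1 and Insr by 0.49 and Irs2 by 0.40. Among 30 genes of the mitochondrial small ribosomal subunit, 2 fell, a share near that of all genes, Mrps9 by 0.42 and Mrps23 by 0.50. In the lipoprotein lipase pathway, Angptl4, an inhibitor of lipoprotein lipase, rose by 1.24 (SE 0.33, adjusted p = 0.0132 from limma), and was the only one of 13 to pass. Of the 9 genes of the tescalcin family 0 passed by limma and 0 had an unadjusted p under 0.05. Near Ceacam1, Gsk3a fell by 0.28 (SE 0.08, adjusted p = 0.0219 from limma), while Apoe (-0.03, SE 0.23) and Apoc1 (-0.09, SE 0.31) did not pass. Among the other markers, 2 of 5 fibroblast markers rose with laser, and of pigment epithelium, melanocyte, endothelial, photoreceptor, lens and erythroid markers 0 passed limma's adjusted p in the mean over genotypes. No marker of the 9 lists passed by genotype, where the only genes called were 4 of the described genes.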

How the data were processed

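Normalized counts of 24 mouse choroid libraries were analysed. Per the labels, libraries were made with SMART-Seq, reads were checked with FastQC 0.11.5 and pseudo-aligned to GRCm39 with Salmon 1.10.3, and counts were imported into DESeq2 1.44.0. The deposited signal values are normalized counts that the authors made from estimated reads of each gene by dividing by factors for library size and average transcript length. Whole reads could not be recovered, because only 36.3% to 77.6% of values under 5 lay within 5% of a whole multiple of a library's smallest step, so no count test was run. From that step, roughly 21749879 to 33233841 reads per library were counted on genes. The normalization follows library size and not tissue content, so differences in tissue content remain in the values. Whether counting used the strand is not given in the sources used here. The authors removed 1 outlier library and used sex as a covariate, and neither is given for the libraries.

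Groups came from the labels. A pseudocount of 1 was added and log2 values were fitted with limma (version 3.58.1, R version 4.3.3) using a variance trend. Genes had to average at least 10 in the libraries fitted, and p was adjusted over all of them by Benjamini-Hochberg, with 0.05 as the threshold. Genotype was fitted in the 8 libraries without laser and in the 16 with laser, laser in a model of all 4 groups. Identifiers were matched to a GRCm39 annotation of later release (99.1% matched), and pseudogenes to parents with blastn 2.17.0. Tables and figures were made with Python 3.11.15, pandas 2.3.3, numpy 2.4.6 and matplotlib 3.10.9.

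The genes, the 6 lists of relatives, the 9 marker lists and the tests were chosen with earlier results of these data known. Named were the 10 genes, Ceacam1, Ceacam2, markers, per genotype contrast the 5 genes of lowest p within 10 Mb of Ceacam1, relatives past the threshold or of lowest p, the 3 genes of highest r per member, and adjacent or overlapping genes, which were chosen after their values were seen. Tried as alternatives were a pseudocount of 0.5 or 10, testing all genes above 0, a minimum mean of 50, upper-quartile scaling, quantile normalization, no trend, array weights, a covariate of summed Y-linked genes, other sets of libraries and leaving out each library in turn. Leaving out Ceacam1-/- laser libraries 14, 15 and 18 was added after seeing the data. A test of the difference between the laser effects was not run. Some genes that the rule would name are not reported here.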

Additional observations from a re-analysis of the deposited data

Results flagged for a closer look

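Among 48 groups of 4 to 9 libraries examined, for the 10 genes, Ceacam1 and Ceacam2, 4 held a library far from the others. By chance about 1 in 20 groups would be flagged. The groups share libraries and are not independent, so nothing is read from the count. Wild type laser library 2 had 13.4 normalized counts of Gm45246, while the next wild type laser library had 1.22, a gap of 0.909 of the range of the group. The same library had 35.7 normalized counts of Akt2-ps, against 5.74 in the next, a gap of 0.839 of the range. Both pseudogenes were thus high in a single wild type library, and its Ceacam1 value lay in the middle of its group. Ceacam1-/- library 28 without laser had 1171 normalized counts of Ceacam1 against 508 in the next, a gap of 0.866 of the range. Wild type laser library 19 had 8367 against 1776 in the next, a gap of 0.868 of the range. No cause was tested.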

How the results depend on the processing

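Under the 1094 alternative values computed, 1034 kept their direction and side of the threshold or, for values without a test, moved by less than 1 SD between libraries, or, for counts, by at most 1.5 times. The count of described genes past the threshold for laser in the mean over genotypes was 1, and 2 with a mean of at least 50, with quantile normalization or with the Y-linked covariate, and 3 with array weights. Leaving out single libraries gave 1 to 3, with 3 without Ceacam1-/- library 23 without laser. In wild type the count of 1 became 4 with array weights and was 1 to 1 without single libraries. In Ceacam1-/- mice it became 2 with array weights, 0 with only the libraries of that genotype, and 1 to 3 without single libraries (3 without library 23). The added gene was Ech1 in each case with a count of 2 in the mean over genotypes. Apoc2 passed in that mean under every alternative, at adjusted p between 1.43e-10 and 3e-07. Relatives called by genotype with laser were 0, and 4 with array weights. Relatives called for laser were 21, 66 with array weights, and 13 to 36 without single libraries (13 without Ceacam1-/- library 25, 36 without library 23). Genes without overlap of genotypes numbered 3 without laser, and 3 to 5 without single libraries (5 without wild type library 26 or Ceacam1-/- library 25). With laser there were 5, and 5 to 7 without single libraries (7 without wild type library 2) and 4 with upper-quartile scaling. Without libraries 14, 15 and 18 the counts with laser were 5 genes without overlap, 1 called for laser and 27 relatives.

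Small laser effects changed sign. Without single libraries, Tescl ranged from -0.55 to 0.061, Gm45246 from -0.031 to 0.298, Akt2-ps from -0.57 to 0.043 and Hnrnpl from -0.066 to 0.045. Hnrnpl was 0.0083 with upper-quartile scaling and 0.014 with array weights, Zfp526 0.032 with array weights, and Akt2-ps 0.018 without libraries 14, 15 and 18. The genotype difference of Akt2 without laser ranged from -0.33 to 0.126 without single libraries, the highest without library 23. The causes were not tested. No paired analysis was possible because the labels give no replicate numbers shared between groups. Depth limits Tescl, both pseudogenes, whose values also depend on how reads shared with the parent were divided, and Apoc2 without laser. The libraries without laser number 4 per genotype.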

Other observations

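Of 335 genes tested within 10 Mb of Ceacam1 that were not chosen, 41 (12.2%) passed limma's adjusted p for laser in the mean over genotypes, near the 13.9% of all genes, and their median log2 fold change was -0.11, against -0.04 over all genes. Lgals4, the galectin gene next to Ech1, averaged 489 and 299 normalized counts without laser and 254 and 129 with laser in wild type and Ceacam1-/- mice. It fell by 1.08 on the log2 scale (SE 0.18, adjusted p = 0.000237 from limma), and passed within each genotype (-0.96 and -1.20). It was named by its genotype values.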
